A study of Mus musculus with 6 samples.

Results

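The genes described here are 10 immediate early genes of the cortex, namely Fos, Fosb, Jun, Junb, Egr1, Egr2, Arc, Npas4, Nr4a1 and Ier2. They were chosen by name, as genes that neuronal activity and cellular stress switch on within minutes, and all 10 were found among the 17348 genes of the deposited table. The libraries are mRNA-seq of E18.5 mouse cortex, 3 from Ybx1 cKO embryos (Nestin-Cre, Ybx1 fl/fl) and 3 from control embryos that carry the floxed alleles without Cre (Ybx1 fl/fl), which the labels call WT. Ybx1 encodes a protein that binds mRNA carrying 5-methylcytosine, and Cre removes its exons 3 to 8 in the cKO. The mice were on a C57BL/6J background, and Nestin-Cre acts in the precursors of the whole nervous system, so the deletion was not limited to cortex. The labels give brain as the tissue and do not say whether a library came from 1 embryo or from several, so every p-value below measures the spread between these libraries only.

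Immediate early genes need no new protein synthesis to be induced: calcium influx or growth factor signalling activates kinases that phosphorylate CREB and the partners of SRF, which already sit on their promoters. Most of them encode transcription factors that go on to switch on a later set of genes, and their mRNAs are short-lived. In the brain they are used as marks of recently active neurons, and because handling and dissociation of tissue also induce them, the values are given library by library.

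Sequence before the starts of these genes was read for known elements of the response. RefSeq windows of GRCm38.p6 were at hand for 7 of the 10 genes (not for Egr1, Arc and Ier2), 5 for Egr2 and 1 for each of the others, and the 250 bases before each start were searched on both strands for 4 motifs. The cAMP response element half-site TGACG, the core of the CREB site, was found in 6 of the 7, namely Fos, Fosb, Junb, Egr2, Npas4 and Nr4a1, and in 19.8% of all 27025 genes, where a gene counts if any of its windows holds the motif. The full palindrome TGACGTCA, which holds the half-site on both strands, was in none of the 7 and in 1.77% of all genes. The AP-1 site TGANTCA, the site of Fos and Jun dimers, was in none of the 7 and in 7.82% of genes, and the CArG box, the site of SRF, was in Egr2 alone of the 7 and in 1.62% of genes. A match or its absence describes these letters in this window and says nothing of binding. The 200 bases before the start are printed for the genes that differed most between libraries (Fos and Fosb) and for the neuron-restricted and nuclear receptor members that did not (Npas4 and Nr4a1), each 5′ to 3′ on the strand of its gene, with half-sites of either strand in capitals. They lie at chr12:85473690-85473889 on the plus strand, chr7:19310046-19310245 on the minus strand, chr19:4989972-4990171 on the minus strand and chr15:101266646-101266845 on the plus strand.
Fos: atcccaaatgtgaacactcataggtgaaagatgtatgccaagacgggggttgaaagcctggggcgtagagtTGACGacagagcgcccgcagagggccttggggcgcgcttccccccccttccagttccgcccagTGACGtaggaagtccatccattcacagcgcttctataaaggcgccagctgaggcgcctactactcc
Fosb: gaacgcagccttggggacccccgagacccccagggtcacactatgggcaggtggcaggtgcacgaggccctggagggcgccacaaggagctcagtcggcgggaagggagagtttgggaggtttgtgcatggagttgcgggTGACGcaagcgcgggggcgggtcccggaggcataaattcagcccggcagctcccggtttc
Npas4: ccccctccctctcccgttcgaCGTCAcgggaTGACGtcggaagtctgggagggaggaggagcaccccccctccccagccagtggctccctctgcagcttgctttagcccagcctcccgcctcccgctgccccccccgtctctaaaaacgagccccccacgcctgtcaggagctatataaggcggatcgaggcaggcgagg
Nr4a1: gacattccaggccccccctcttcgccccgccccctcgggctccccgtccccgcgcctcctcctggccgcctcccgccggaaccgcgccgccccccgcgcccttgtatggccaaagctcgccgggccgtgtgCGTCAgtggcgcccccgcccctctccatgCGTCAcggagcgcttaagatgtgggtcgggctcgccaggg

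Among these windows, Fos held half-sites at bases -129 to -125 and -66 to -62 from its start, and Fosb held 1 at -60 to -56. Npas4 held a pair at -179 to -175 and -169 to -165, and of the 4 in Nr4a1 those at -69 to -65 and -40 to -36 fall in the printed stretch. The starts are those of RefSeq, and GENCODE M21 begins Npas4, Nr4a1 and Egr2 further upstream. The windows of Npas4 and Nr4a1, and the Egr2 windows that held a motif, therefore lie inside its gene spans.

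Library totals ranged from 15091951 to 16885451 estimated counts, at which 3 counts, taken as the detection floor, equal 0.176 to 0.206 CPM (counts scaled by the TMM-adjusted library total), and these limits cover counting error only. Ybx1 was at 13950 to 22152 counts in the control libraries and at 387 to 394 in the cKO libraries, so the labels held. Excitatory neuron markers summed to 2566 to 3179 CPM and choroid plexus markers to 0.234 to 0.690 CPM, so the defining markers of cortex were present, while striatal markers summed to 71.5 to 115 CPM. The 4 Y-linked genes examined summed to 215 to 295 CPM in the control libraries and to 0.929 to 1.47 CPM in the cKO libraries, so sex and genotype cannot be told apart in any comparison below. In bulk tissue, fewer cells that express a gene and less RNA per cell cannot be told apart either.

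Fos, Fosb and Egr1 were high in 1 library of each group, the replicate 3 library, and low in the other 4. Fos, the partner of Jun in the AP-1 transcription factor (Entrez 14281, chr12:85473890-85477273, plus strand, GRCm38), was at 7, 19 and 124 counts in control replicates 1, 2 and 3 and at 3, 16 and 97 counts in cKO replicates 1, 2 and 3. Both replicate 3 libraries thus stood above the other 4, and the groups overlapped. Set against replicates 1 and 2 together and corrected for library size, the replicate 3 level of Fos was 10.8-fold in control (95% exact counting interval 7.03 to 17.2) and 10.4-fold in cKO (6.34 to 18.1).

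Fosb, a close relative of Fos that can take its place in AP-1 (Entrez 14282, chr7:19302696-19310051, minus strand), was at 3, 4 and 60 counts in control replicates 1, 2 and 3 and at 4, 1 and 38 counts in the cKO replicates. In the 4 libraries of replicates 1 and 2 it was at or near the floor, and only the replicate 3 libraries carried it well above. The replicate 3 level was 19.4-fold that of replicates 1 and 2 together in control (8.86 to 50.3) and 15.5-fold in cKO (6.11 to 50.6). Fosb did not pass the default filter on low counts, and neither did Egr2, which left 8 of the 10 genes in the test across all genes.

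Egr1, a zinc finger factor used beside Fos as an activity mark (Entrez 13653, chr18:34859823-34864984, plus strand), was at 47, 109 and 365 counts in control and at 82, 92 and 274 counts in cKO. The replicate 3 library was again the highest of each group, 5.29-fold (4.38 to 6.43) above replicates 1 and 2 in control and 3.22-fold (2.65 to 3.92) in cKO. The counting intervals of the 2 groups do not meet for Egr1, and they overlap for Fos and Fosb. These intervals hold counting error only, and whether the ratio differed between the groups beyond the spread of libraries was not tested.

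**Figure D1:**
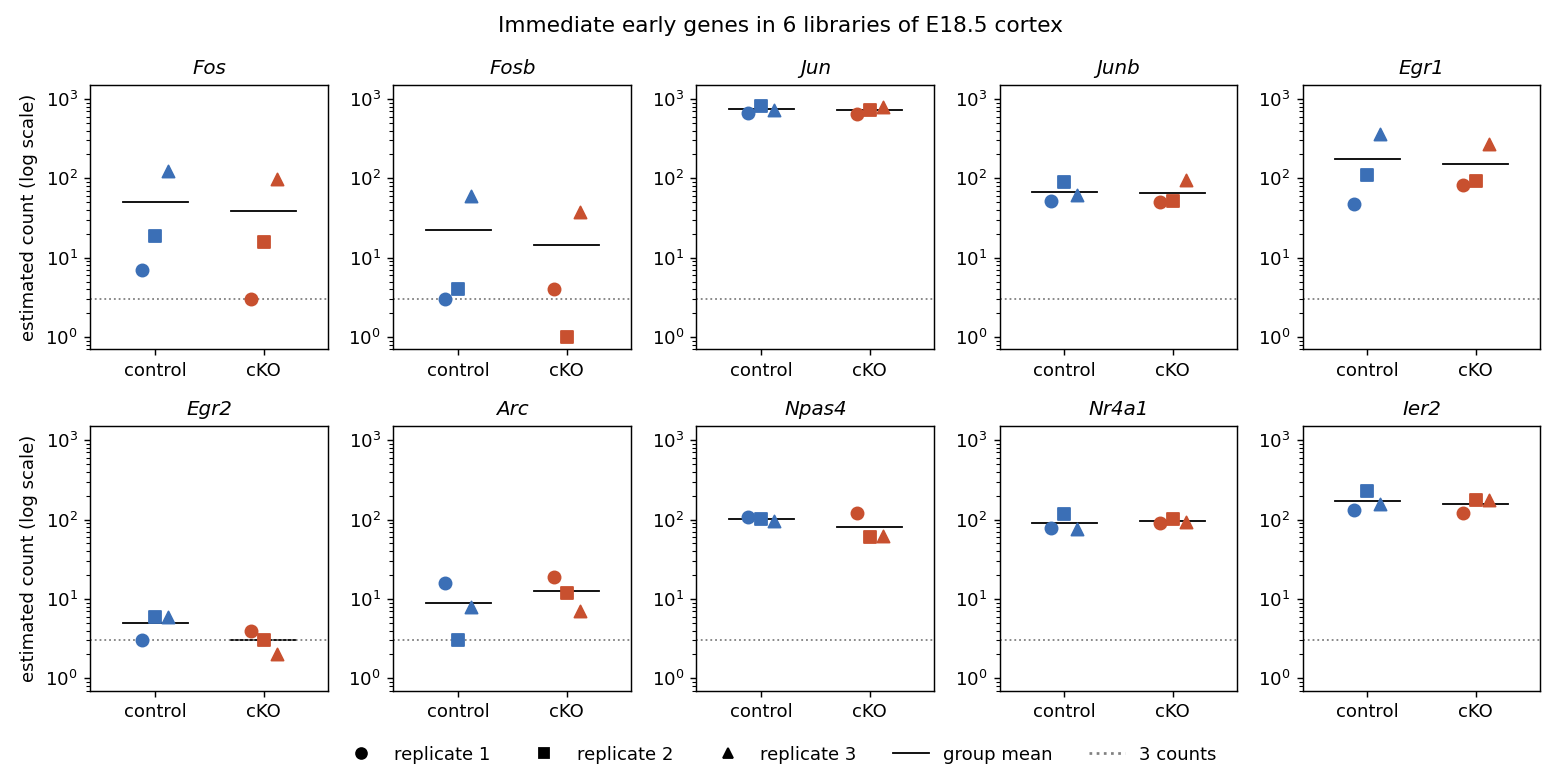
Estimated counts (log axis) of each of the 10 immediate early genes in the 3 control (blue) and 3 cKO (red) libraries, where circles, squares and triangles stand for replicates 1, 2 and 3, the line for the group mean and the dotted line for 3 counts. The replicate 3 triangles of Fos, Fosb and Egr1 stand above the other points of both groups (124 and 97 counts for Fos), while those of Jun, Nr4a1 and Ier2 lie among them or close to them.

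The other AP-1 members did not share this pattern to the same extent. Jun, the subunit that most Fos dimers need (Entrez 16476, chr4:95049034-95052222, minus strand), was at 672, 806 and 732 counts in control and at 651, 731 and 800 counts in cKO. Its level in replicate 3 was 1.12-fold (1.02 to 1.23) that of replicates 1 and 2 in control and 1.18-fold (1.08 to 1.29) in cKO, and after scaling both replicate 3 libraries stood above the other 4 by this small margin. Junb, which forms weaker AP-1 dimers and can restrain Jun (Entrez 16477, chr8:84974484-84978718, minus strand), was at 52, 89 and 61 counts in control and at 51, 52 and 95 counts in cKO. Junb was thus highest in replicate 2 of control, with a replicate 3 ratio of 0.979 (0.713 to 1.33), and highest in replicate 3 of cKO, with a ratio of 1.89 (1.41 to 2.52). The annotation places the antisense gene Junos over Jun and the gene Prdx2 on the opposite strand over part of Junb. The strandedness of the counting is not given in the sources used here, so reads of these partners cannot be told from those of Jun and Junb.

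Egr2, the relative of Egr1 best known from hindbrain patterning and myelination (Entrez 13654, chr10:67535475-67542188, plus strand), stayed between 2 and 6 counts in the 6 libraries. Its replicate 3 ratio was 1.51 (0.442 to 4.75) in control and 0.585 (0.0593 to 3.07) in cKO, intervals too wide to place it with or apart from Egr1. Arc, whose protein acts at synapses in the removal of AMPA receptors (Entrez 11838, chr15:74669083-74672570, minus strand), was at 16, 3 and 8 counts in control and at 19, 12 and 7 counts in cKO. Arc was highest in replicate 1 of both groups, and its replicate 3 ratios of 0.953 (0.361 to 2.28) and 0.462 (0.172 to 1.07) had upper limits below the lower limits of Fos, Fosb and Egr1 in the same group.

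Npas4, a neuron-restricted factor that calcium influx induces rather selectively (Entrez 225872, chr19:4984355-4990316, minus strand), was at 108, 103 and 95 counts in control and at 121, 61 and 62 counts in cKO. Replicate 3 was 1.02-fold (0.791 to 1.3) the level of replicates 1 and 2 in control and 0.697-fold (0.514 to 0.935) in cKO, where replicate 1 alone was high. The nuclear receptor gene Nr4a1 (Entrez 15370, chr15:101254269-101274795, plus strand) was at 78, 117 and 75 counts in control and at 91, 102 and 94 counts in cKO, with replicate 3 ratios of 0.870 (0.658 to 1.14) and 0.996 (0.770 to 1.28). Ier2, a nuclear protein of the growth factor response (Entrez 15936, chr8:84661331-84662852, minus strand), was at 132, 228 and 158 counts in control and at 121, 178 and 174 counts in cKO, with ratios of 0.993 (0.818 to 1.20) and 1.19 (0.982 to 1.44). Nr4a1 and Ier2 were highest in replicate 2 of both groups, and Ier2 was lowest in replicate 1 of both.

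Across all 13570 genes tested, 6 genes (0.0442% of those tested) lay at least 1 log2 unit higher in replicate 3 than in the mean of replicates 1 and 2 in both groups. Fos and Egr1 were 2 of them, at ranks 1 and 3 by the smaller of the 2 differences. Fos was 3.37 log2 units higher in control and 3.41 in cKO, and Egr1 2.49 and 1.67. Fosb, which was not among the genes tested, was 3.66 and 3.26 higher. The other 4 genes were Entpd4, Gm14296, Gm3993 and Bst2, named here after their values were seen. Entpd4 was listed at 0 in control replicate 1 and cKO replicate 2 and was at 6.27 to 10.2 CPM in the other 4 libraries, so it was not high in replicate 3 alone. Nor were Gm14296 and Gm3993 in cKO, where Gm14296 was at 0, 14.5 and 15.3 CPM in replicates 1, 2 and 3 and Gm3993 at 0.062, 2.77 and 1.98 CPM. Under the looser rule that both replicate 3 libraries lie above the other 4, 3 of the 8 tested members passed (Fos, Egr1 and Jun), against 9.33% of all genes tested, and 9.03% of genes had both replicate 3 libraries below the other 4.

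**Figure D2:**
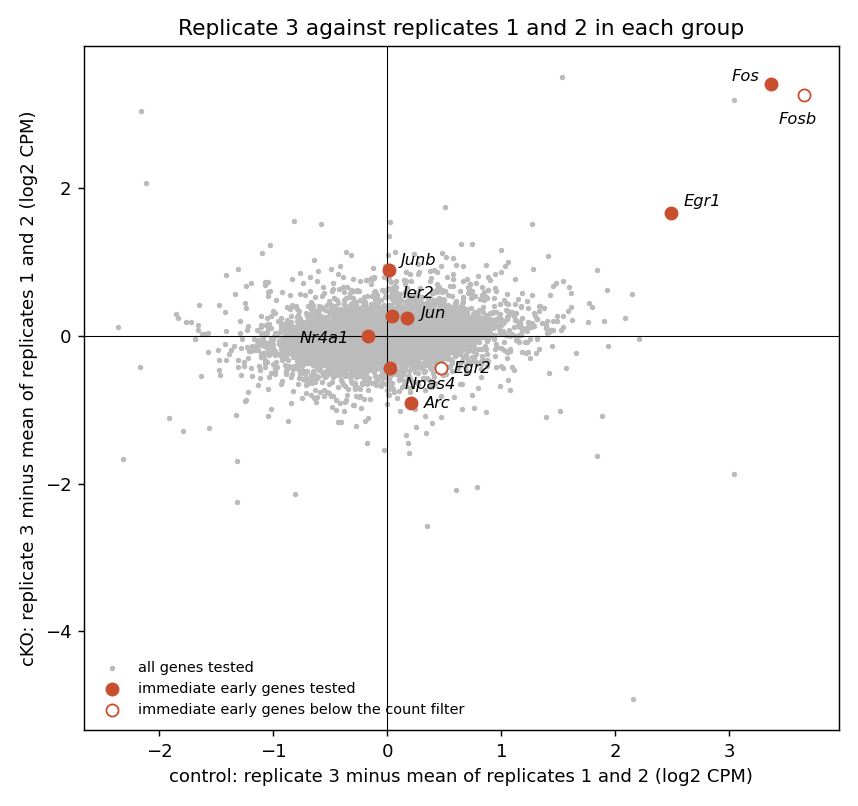
Each point is a gene, placed by how far its log2 CPM in replicate 3 lay above the mean of replicates 1 and 2, in control (horizontal axis) and in cKO (vertical axis), with the tested immediate early genes as filled red points, Fosb and Egr2 as open red points and all genes tested in grey. Fos (3.37 and 3.41), Fosb (3.66 and 3.26) and Egr1 (2.49 and 1.67) lie in the upper right, away from the mass of genes, and the other 7 lie within or at the edge of it.

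An F test of the replicate number in the fit that holds both genotype and number was added after these values had been seen, so it describes the pattern and is no independent support of it. With the quasi-likelihood test of edgeR, adjusted by Benjamini-Hochberg, Fos was the 1 gene with an adjusted p-value under 0.05 (0.00737% of genes tested), at 0.0165. An unadjusted p-value under 0.05, which 5.19% of all genes had, was found for 3 members: Fos at 1.21e-06, Egr1 at 3.77e-05 (adjusted 0.256) and Ier2 at 0.0253 (adjusted 0.686). For Jun, Junb, Arc and Npas4 the unadjusted values were 0.141, 0.164, 0.0755 and 0.134, and for Nr4a1 0.348. With no filter on low counts Fosb entered the fit, and the adjusted p-values of Fosb and Egr1 were 0.0152 and 0.0218. The labels do not say what the replicate number marks. The description of the series speaks of 3 batches of sequencing and the paper of 3 independent replicate experiments, and the labels tie neither to the replicate number. Whether dissection, litter, time of collection or sequencing went with it was not tested. Of the summed cell type markers, those of the 6 radial glia markers lay lowest in both replicate 3 libraries, at 636 and 698 CPM against 711 to 835 CPM in the other 4, and none of the other 10 marker lists had both replicate 3 sums beyond the other 4 in the same direction. The part of these values in the result was not tested.

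The comparison of cKO with control, the question for which the libraries were made, found no difference in any of the 10 genes that exceeded the spread between libraries. None of the 8 tested members had an adjusted p-value under 0.05 by the quasi-likelihood test of edgeR (Benjamini-Hochberg adjusted), where 10 genes did in all (0.0737% of those tested), 3 higher in cKO (0.0221%) and 7 lower (0.0516%). The 4 Y-linked genes examined were among these 7. None of the 8 members had an unadjusted p-value under 0.05 either, against 6.62% of all genes, and none had groups that did not overlap, against 14.3% of all genes. The smallest adjusted p-value of a member was 0.859. Arc and Nr4a1 had the higher mean in cKO and the other 6 tested members the lower one, while on log2(TPM + 1), where the median of all genes was 0.14, 5 of the 7 fitted members lay above 0. On counts the median log2 fold change of the 8 was -0.073 beside 0.0027 over all genes tested.

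How small a difference these libraries could show differed widely between members. The level of Jun was 46.5 ± 4.06 CPM in control and 45.8 ± 5.39 CPM in cKO (mean ± SD, n = 3 in each group, as below), a log2 fold change of -0.022 (SE 0.125). Its 95% interval in cKO was 0.809-fold to 1.20-fold of control, with an adjusted p-value of 0.983. Nr4a1 was at 5.63 ± 1.07 and 6.02 ± 0.394 CPM, with a log2 fold change of 0.094 (SE 0.191), an interval of 0.791-fold to 1.44-fold and an adjusted p-value of 0.936. Ier2, at 10.8 ± 2.54 and 9.94 ± 2.12 CPM, gave a log2 fold change of -0.12 (SE 0.225), an interval of 0.645-fold to 1.31-fold and an adjusted p-value of 0.928. For these 3 genes, and for Npas4 and Junb below, a doubling or a halving lay outside the interval.

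Npas4 had the smallest unadjusted p-value of the 8 tested members, at 6.44 ± 0.375 CPM in control and 5.10 ± 2.07 CPM in cKO. Its log2 fold change was -0.33 (SE 0.267), its interval 0.521-fold to 1.21-fold and its unadjusted p-value 0.242 (adjusted 0.859). Cortices of cKO replicates 2 and 3 gave fewer Npas4 counts than any control, and cKO replicate 1 gave more than any of them. Junb, at 4.22 ± 0.976 and 4.17 ± 1.65 CPM, had a log2 fold change of -0.021 (SE 0.300) and an interval of 0.616-fold to 1.58-fold.

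Intervals were widest for the genes that stood out in replicate 3 and for those with few counts. Fos was at 3.35 ± 4.47 CPM in control and 2.46 ± 3.26 CPM in cKO, SDs above the means, and its log2 fold change of -0.42 (SE 1.11) had an interval from 0.131-fold to 4.26-fold (adjusted p-value 0.953). Egr1 was at 11.4 ± 11.9 and 9.45 ± 6.97 CPM, with a log2 fold change of -0.27 (SE 0.719), an interval from 0.269-fold to 2.57-fold and an adjusted p-value of 0.954. Arc, at 0.576 ± 0.414 and 0.793 ± 0.366 CPM, had a log2 fold change of 0.48 (SE 0.569) with an interval of 0.569-fold to 3.40-fold (adjusted p-value 0.902). Fosb and Egr2, fitted with no filter, had log2 fold changes of -0.70 (SE 1.10) and -0.73 (SE 0.596) and adjusted p-values of 0.919 and 0.855. A two-sided exact permutation test of each gene over the 6 libraries gave p-values between 0.3 for Egr2 and 1.0 for Egr1, where 0.1 is the smallest value that 3 libraries against 3 allow.

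**Figure D3:**
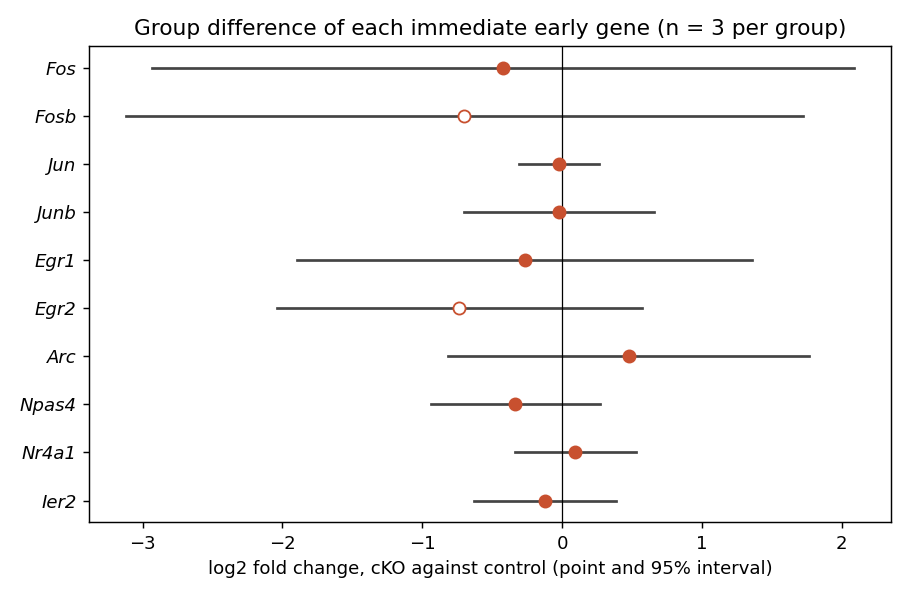
Log2 fold change of cKO against control (points) with its 95% interval (lines) for each of the 10 immediate early genes, n = 3 libraries per group, where open points mark Fosb and Egr2, fitted without the filter on low counts. Every interval crosses 0, the interval of Jun is the narrowest (-0.31 to 0.26) and those of Fos (-2.93 to 2.09) and Fosb (-3.12 to 1.73) are the widest.

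Within a replicate number, Fos alone of the 10 genes had the same direction of cKO against control at all 3 numbers. It was lower in cKO, with log2 differences of -0.86, -0.13 and -0.45 for replicates 1, 2 and 3. The difference at replicate 1 rests on 3 counts in cKO, the floor, against 7 in control. How many of all genes keep 1 direction at all 3 numbers was not counted, so this is not read as a change in Fos. Egr1 went from 0.76 at replicate 1 to -0.14 and -0.51 at replicates 2 and 3, and Npas4 from 0.14 to -0.63 and -0.70. Arc differed by 0.21, 1.55 and -0.23, where the 1.55 rests on 12 counts in cKO against 3 in control. Junb differed by -0.045, -0.65 and 0.52, and Jun by -0.064, -0.037 and 0.027. With both replicate 3 libraries left out, the log2 fold change was -0.39 for Fos and 0.22 for Egr1, neither with an adjusted p-value under 0.05. Leaving out the single library control replicate 3 moved Fos to 1.64 and Egr1 to 1.01, and leaving out cKO replicate 3 moved them to -2.46 and -1.07. Without cKO replicate 1 they were at 0.13 and 0.034. The sign of both genes thus changed when either control replicate 3 or cKO replicate 1 was left out, and stayed negative without cKO replicate 3.

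The spread between libraries of 1 group, which holds counting error too, went into these limits. For Arc, at 3 to 19 counts, counting error is a part of that spread. The within-group SD of log2 CPM was 2.10 for Fos, rank 6 among the 13570 genes tested, 1.28 for Egr1 (rank 16) and 0.80 for Arc (rank 105). It was 0.43 for Junb, 0.38 for Npas4 and 0.33 for Ier2, and lower for Nr4a1 (0.19) and Jun (0.15), the 2 members at or below the median of all genes (0.195). Averaged over the 10 genes, libraries lay -0.42, -0.13 and 0.75 log2 units from the gene means in control replicates 1, 2 and 3, and -0.35, -0.32 and 0.46 in the cKO replicates. The replicate 3 means were carried by Fos (2.48 in control and 2.03 in cKO), Fosb (2.67 and 1.94) and Egr1 (1.64 and 1.13). The other members lay between -0.17 (Nr4a1) and 0.55 (Egr2) in control replicate 3, and between -0.53 (Egr2) and 0.57 (Junb) in cKO replicate 3. Control replicate 3 held the highest value of 4 members, and cKO replicate 1 the lowest value of 4.

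Levels can be set side by side between genes on the TPM scale, which divides by transcript length. Jun was the highest member in every library, with a median of 35.2 TPM over the 6 libraries (31.5 to 41.8), and Ier2 followed at 20.6 TPM (14.6 to 21.6). The ranges of Jun and Ier2 did not overlap, nor did those of Ier2 and the next gene, Nr4a1, at 5.68 TPM (4.50 to 6.46). From there on the ranges of neighbours overlapped: Junb was at 5.60 TPM (4.66 to 9.30), Egr1 at 4.67 (2.34 to 20.6), Npas4 at 2.02 (1.02 to 2.69) and Fos at 1.25 (0.24 to 10.7). Arc (0.545 TPM), Egr2 (0.20 TPM) and Fosb (0.16 TPM) were lowest by median, although Fosb reached 2.72 TPM in control replicate 3. The place of Fos and Egr1 in this order depended on the library: Egr1 stood at 20.6 TPM and Fos at 10.7 TPM in control replicate 3, above Nr4a1, Junb and Npas4 there. Egr1 was also just above Ier2 (20.3 TPM) in that library, so its range overlapped that of Ier2 too.

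Other genes of the same response were read from lists named from general knowledge. Of 41 further immediate early genes in the table, 37 were tested and none had an adjusted p-value under 0.05 between cKO and control, while 1 was higher and 3 were lower in cKO at an unadjusted p-value under 0.05 that did not hold after adjustment, a count to be read beside the 6.62% of all genes with such a p-value. Ccn2, a secreted matricellular protein, had a log2 fold change of 0.63 (unadjusted p-value 0.0171, adjusted 0.596), and its counts were 97, 107 and 71 in control and 185, 116 and 124 in cKO. Ier5 (-0.43), Nfil3 (-0.41) and the kinase gene Sik1 (-0.29) had adjusted p-values of 0.630 to 0.645. The list's median log2 fold change was -0.11, and 7 of its 37 tested genes had groups that did not overlap, where 14.3% of all genes did.

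None of these 37 genes was 1 log2 unit higher in replicate 3 of both groups. The largest value of the smaller difference was 0.27, for Gadd45b, and 3 of the 37 had both replicate 3 libraries above the other 4, where 9.33% of all genes did. The closest relatives of the members were among those that did not: Egr3, a paralog of Egr1 and Egr2, differed by -0.27 log2 units in replicate 3 of control and by -1.22 in that of cKO, and Jund, a paralog of Jun and Junb, by -0.73 and 0.076. Nr4a2, a paralog of Nr4a1, was 0.37 and 0.25 higher. Egr3, Jund, Nr4a2 and Gadd45b were chosen for mention after their values were seen. Fosl1, Egr4, Atf3 and Cebpb were too low to be tested.

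The genes that act before, after and against the members gave no call either. None of 18 transcription factors and cofactors upstream (median log2 fold change 0.035), 23 kinases and phosphatases (0.074), 14 feedback inhibitors (-0.0060), 17 late response genes (-0.045) and 11 proteins that bind AU-rich mRNA elements (0.0061) had an adjusted p-value under 0.05. Crtc1, a coactivator of CREB, had the smallest unadjusted p-value among the upstream factors, with a log2 fold change of -0.26 (unadjusted p-value 0.0474, adjusted 0.742). Dusp1, an early-induced phosphatase that turns off the kinases, was 0.20 and 0.23 log2 units higher in the replicate 3 libraries of control and cKO, beside 3.37 and 3.41 for Fos. Like Egr3 and Jund above, Dusp1 falls outside the rule for named genes given with the processing. Of 15 heat shock genes tested none passed, with Hsp90ab1 at -0.27 (unadjusted p-value 0.0366, adjusted 0.703), and none of 15 hypoxia genes tested passed. Both replicate 3 libraries lay above the other 4 for 4 of the 18 upstream factors, 5 of the 23 kinases and phosphatases, 3 of the 11 AU-rich element binding proteins, 1 of the 14 feedback inhibitors, 0 of the 17 late response genes, 0 of the 15 heat shock genes and 1 of the 15 hypoxia genes, beside 9.33% of all genes. In none of these lists was a gene 1 log2 unit higher in replicate 3 of both groups.

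The genes whose profile over the 6 libraries was most like the mean profile of the 10 members were sought among 1510 genes with a mean of at least 1 CPM and a range of at least 1 log2 unit. Pearson's r is given as a description, over 6 libraries that share preparation and depth, and the mean profile is carried mostly by Fos, Fosb and Egr1. The 10 closest were Zfp967 (0.954), Ifitm3 (0.919), Cavin4 (0.916), Zfp972 (0.910), Oasl2 (0.905), Trim66 (0.895), Gbp3 (0.882), B2m (0.881), Ifih1 (0.871) and Bst2 (0.859). Zfp967 was at 12.9, 12.1 and 22.9 CPM in control replicates 1, 2 and 3 and at 11.5, 11.3 and 22.3 CPM in cKO, both replicate 3 libraries above the rest. Zfp967 and Zfp972 belong to a large family of closely related zinc finger genes, so their counts are uncertain. Ifitm3, Oasl2, Gbp3, B2m, Ifih1 and Bst2 are, as background, known to be induced by interferon, a feature seen after the genes were listed and not tested. Oasl2 was at 1.0, 1.64 and 4.18 CPM in control and at 1.24, 2.01 and 2.43 CPM in cKO, and Bst2 at 0.940, 1.82 and 3.70 CPM and at 0.681, 0.629 and 1.53 CPM. The genes were picked for likeness to the mean profile, so their high values in replicate 3 follow from the choice. None of the 10 was called between cKO and control by the same test of edgeR, with adjusted p-values from 0.764 to 0.997, although Bst2 had a log2 fold change of -1.17 and Gbp3 of -0.85.

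**Figure D4:**
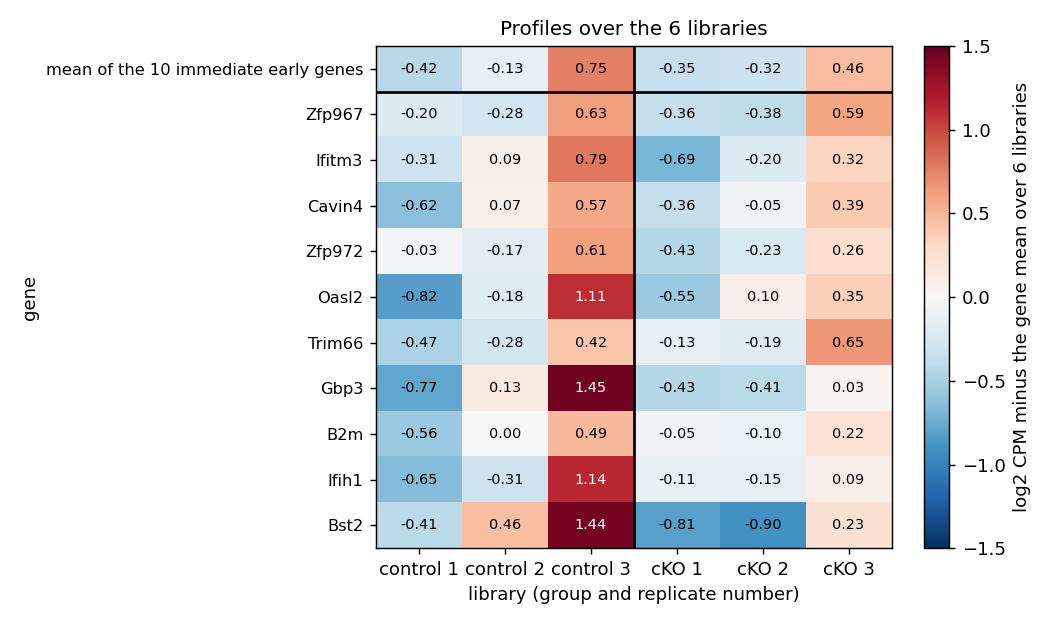
Log2 CPM minus the mean of the gene over 6 libraries (colour and printed value) for the mean of the 10 immediate early genes (top row) and the 10 genes most like it by Pearson's r, by library. Control replicate 3 (0.75 for the mean profile) and cKO replicate 3 (0.46) are the highest libraries of their groups in all 11 profiles.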

How the data were processed

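The data are 3 Ybx1 cKO and 3 control libraries of E18.5 cortex (Trizol RNA, mRNA library kit, DNBSEQ sequencing). The authors deposited 1 table that lists each gene's estimated count, TPM and FPKM for every library, and group means that were not used. The authors' estimated counts carry no scaling between libraries. The deposited TPM values are scaled by the authors for transcript length within each library, as are the deposited FPKM values, which were not tested. The submitters' processing notes name HISAT2 2.2.1, Bowtie2 2.4.5, RSEM 1.3.1, GRCm38 and mm10, without roles. Annotation and strandedness are not given in the sources used here.

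Counts, 89.4% of them whole within 1e-06 (88.5% of those above 0), were rounded, filtered with filterByExpr (13570 genes), scaled by TMM and compared across all genes by the quasi-likelihood test of edgeR 4.0.16, adjusted by Benjamini-Hochberg (R 4.3.3). A call is an adjusted p-value under 0.05. The BCV was 0.147. Log2 CPM used a prior count of 2. Library totals and the floor are in the report, and CPM errors are SDs. No replicates were duplicates (chi-square per degree of freedom 3.53 to 65.9). Pairs with control replicate 2 gave 41.8 to 65.9 and all other pairs at most 19.3, so control replicate 2 was the library least like the rest. Intervals on count ratios are exact binomial ones, and permutation tests exact and two-sided (scipy 1.17.1). Coordinates are from GENCODE M21 (GRCm38), promoters from RefSeq (GRCm38.p6). Scripts were tested on simulated data.

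The members and lists were chosen with earlier results of these data known. Named genes were the 10 members, Ybx1, in each gene list those with an adjusted p-value under 0.05 and up to 4 with the smallest unadjusted p-values under 0.05, the 10 genes most like the mean member profile, and Y-linked and marker genes. Alternatives were RLE scaling, DESeq2 1.42.0, other filters, each library left out, limma 3.58.1 on the authors' log2(TPM + 1) and log2(TPM + 0.1), a length and GC correction (mgcv 1.9.3), X and Y genes left out and the replicate number as a block. The test of the replicate number, leaving out both replicate 3 libraries, and the second TPM setting for library profiles were added after seeing the data.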

Additional observations from a re-analysis of the deposited data

How the results depend on the processing

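No member that could be tested was called between cKO and control under 17 alternatives, which held 7 to 10 members each (Egr2 only without a filter, and with no adjusted p-value for Egr2 and Arc in DESeq2). The lowest adjusted p-value of a member was 0.350, while the number of genes called moved from 10 to 93 with DESeq2, 17 with limma on log2(TPM + 1) and 17 on log2(TPM + 0.1), 222 with a correction for length and GC, 267 when the block joined it, and 6 without X and Y genes. Leaving out 1 library gave between 8 and 122 genes, with 122 without control replicate 2 and 19 without control replicate 3.

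The log2 fold changes crossed 0 for 5 members, never with a call. Over the libraries left out in turn they ran from -2.46 to 1.64 for Fos, -1.07 to 1.01 for Egr1, -0.11 to 0.064 for Jun, -0.39 to 0.16 for Junb and -0.28 to 0.059 for Ier2. With limma on log2(TPM + 1) Jun was at 0.12, Junb at 0.083, Egr1 at 0.12 and Ier2 at 0.031, and on log2(TPM + 0.1) at 0.12, 0.090, 0.18 and 0.032. These settings moved the median of all genes to 0.14 and 0.15, and relative to it Jun, Junb and Ier2 were below 0 in both and Egr1 in the first. Correcting for length and GC put Junb at 0.077, and at 0.0098 once the block was added. Without both replicate 3 libraries Egr1 was at 0.22. The sign held for the rest where they were fitted, but the size did not: with 1 library left out Arc ran from 0.023 (without control replicate 2) to 1.16 (without control replicate 1), Nr4a1 from 0.0024 (without control replicate 1) to 0.26 (without control replicate 2), Npas4 from -0.72 to -0.17 (without cKO replicates 1 and 2) and Fosb from -1.22 to -0.14 (without control replicate 1 and cKO replicate 2).

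The replicate number called Fos alone in the main fit, and 3 members with DESeq2 (8 genes called in all) and with no filter (4 genes), with Fosb and Egr1 added. With CPM above 1 in 2 libraries it called Fos and Fosb (3 genes). Fosb met that filter only through the replicate 3 libraries (4.11 and 2.43 CPM), so its call there is no separate support. After correcting for length and GC it called Fos and Egr1 (6 genes). With limma on log2(TPM + 0.1) it called 0, and Fos had an adjusted p-value of 0.0698. Leaving out 1 library gave 2 to 6 members, in fits with 1 residual degree of freedom that called from 13 to 5122 genes in all. The 6 came without cKO replicate 2, where 5122 of 13726 genes were called, so this count is no result about the members. With both replicate 3 libraries left out 0 members and 27 genes were called. The cause of these differences was not tested.

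Pairing was checked by correlating the deviations of same-numbered libraries, which gave 0.0884, 0.0615 and 0.230 for replicates 1, 2 and 3. Each library correlated best with its own number, a hint from the data and not from the design. At replicate 2 the margin was very small, since control replicate 2 gave 0.0588 with cKO replicate 1. With the number as a block 11 genes and 0 members were called. Low counts limit Fosb, Egr2 and Arc.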
